A study of Rattus norvegicus with 8 samples.

Results

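Genes annotated to the primary cilium and to Hedgehog signaling were followed in cultured rat nucleus pulposus cells, which come from the soft centre of the intervertebral disc. A gene was taken when a GO term in the deposited table held the word cilium or smoothened. Genes that also carried a term on cell division, mitosis, the spindle, DNA replication or DNA repair were left out (17 genes), as was Bmp2. This left 102 of the 4226 genes in the table. Of these, 24 carried a smoothened term, here called Hedgehog members, and 51 a cilium assembly term, with 12 in both sets. The remaining 39 had other cilium terms, and 7 of those had terms on the stereocilium, the actin-filled protrusion of hair cells, and no other cilium term. All but 1 of the members are protein-coding; the table calls Wdr90 a pseudogene.

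SOD1 is the copper-zinc superoxide dismutase of the cytosol. In every sample it had been knocked down and then supplied by transfection, as wild-type SOD1 in 4 libraries (SOD1-WT) or as SOD1 with the K123R substitution of lysine by arginine in 4 libraries (SOD1-K123R). Both groups received 10 mM lactate for 7 days, so lactate, knockdown and transfection are shared by the controls. The sources used here give neither the animals' strain and age nor whether replicates came from separate cultures, so p-values measure the spread between libraries, possibly technical only. Sod1 itself was not analysed here, so the labels could not be checked against it. Column headers name the SOD1-WT libraries Ctrl and the SOD1-K123R libraries L, which the labels do not expand. Were L an abbreviation of lactate, lactate would differ between the groups along with SOD1. The labels record lactate for both groups, and the TPM values do not settle which reading is right, so every difference here is between the libraries under these labels. Values are TPM, a unit scaled for transcript length and library size, so that levels of different genes can be set side by side.

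The primary cilium is a single, non-motile antenna that grows from the mother centriole, usually in cells that have left the division cycle. It is built by intraflagellar transport (IFT), in which trains of IFT-A and IFT-B complexes travel to the tip with kinesin-2 and return with dynein-2. The transition zone gates the base, and the BBSome carries membrane receptors. Vertebrate Hedgehog signaling runs through this organelle: a ligand bound to Patched releases Smoothened into the cilium, and GLI transcription factors then switch on targets such as Gli1 and Hhip. Sonic hedgehog from the notochord shapes the embryonic disc.

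Whole-table facts that bear on the members are few. Only part of the transcriptome was in the table. Its columns held 18.8% to 19.9% of the full TPM total in SOD1-WT and 23.5% to 24.3% in SOD1-K123R. In the limma fit, 2765 of 2890 genes tested (95.7%) passed the threshold, a Benjamini-Hochberg adjusted p below 0.05. Of all genes tested, 44.6% rose and 51.1% fell in SOD1-K123R, and 91.4% had groups that did not overlap. A call by itself therefore sets no member apart from the table. In bulk RNA, fewer cells of a type and less RNA per cell cannot be told apart. Of 17 nucleus pulposus markers 7 were in the table. Their summed level was 298 to 623 TPM in SOD1-WT and 135 to 218 in SOD1-K123R, most of it from Cd55. The list did not move one way: of 6 tested, Cd55, Cdh2 and Acan fell, while Sox9 (0.4 to 3.185 TPM), Cd24 (10.1 to 31.2) and Car12 (0.778 to 3.27) rose, with a median log2 fold change of 0.32. Col2a1, the defining collagen of cartilage-like matrix, was listed at 0 in every SOD1-WT library and at 0.02 to 0.08 TPM in SOD1-K123R.

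Both gene sets were mostly lower in SOD1-K123R. Among Hedgehog members 16 of 24 averaged 1 TPM or more across libraries and were tested: 14 fell and 2 rose. The median log2 fold change was -0.97, against -0.49 over all genes tested. Among cilium assembly members 39 of 51 were tested: 29 fell, 8 rose and 2 did not pass. Their median was -0.88. The median of all genes differed with level, and at like levels below 20 TPM it lay closer to that of the members, as given below. Over all members, 67 were tested, of which 47 fell (70.1%), 18 rose (26.9%) and 2 did not pass. Of all genes tested 51.1% fell and 44.6% rose. Groups did not overlap in 60 of the 67 members, a share close to the 91.4% of all genes tested. Median-of-ratios scaling moved the log2 fold changes of genes tested by a median of 0.39. It left medians of -0.61 for Hedgehog and -0.58 for cilium assembly members against -0.17 for all genes. These counts are descriptions of the genes present in the table. Fold changes are of TPM + 1 on the log2 scale, SOD1-K123R minus SOD1-WT, which understates changes of low genes.

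**Figure D1:**
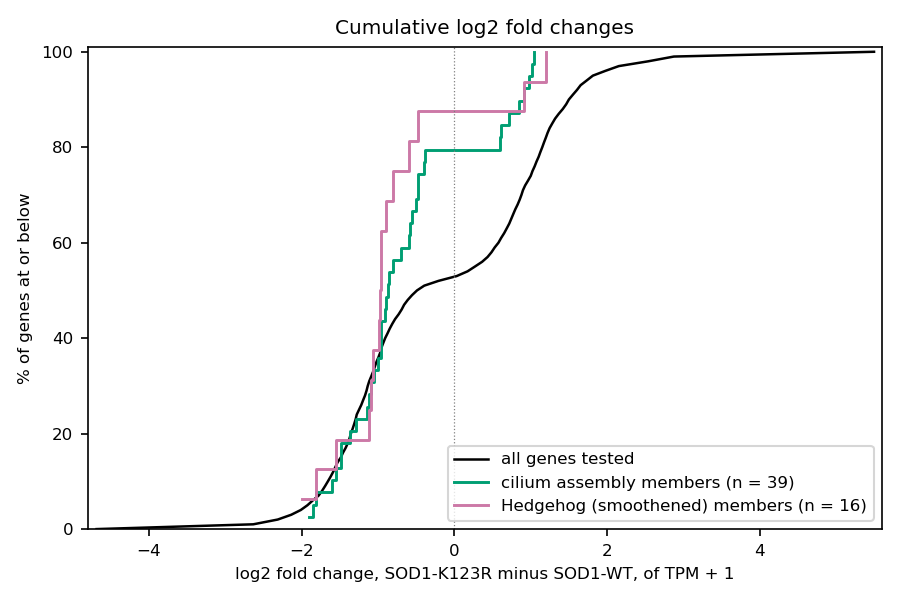
Cumulative percentage of genes (y axis) at or below each log2 fold change (x axis, SOD1-K123R minus SOD1-WT, of TPM + 1) for all 2890 genes tested, the 39 tested cilium assembly members and the 16 tested Hedgehog members. The member curves climb to the left of 0, with medians of -0.88 and -0.97 against -0.49 for all genes, whatever their level.

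The share that fell differed with level. Between 1 and under 5 TPM, 29 of 36 members fell (80.6%), against 58.2% of all genes at that level. Median log2 fold changes there were -0.87 for members and -0.66 for all genes. From 5 to under 20 TPM 14 of 19 fell (73.7%) against 55.4%, with medians of -0.99 and -0.81. At 20 TPM or more 4 of 12 fell (33.3%), close to the 38.2% of all genes at that level. Medians there were 0.73 for members and 0.61 for all genes. Those 12 are Boc, Ehd3, Cav1 and Myof, which fell, and Gorab, Rilpl2, Ptpn23, Mbd1, Mark4, Cfap20, Stk11 and Vhl, which rose. Just inside the filter lay Catsperg (mean 1.025 TPM), Dnaaf3 (1.09) and Pvalb (1.23), and just outside it Kif24 (0.885), Tbc1d32 (0.878) and Ripor2 (0.825). A tested gene averaging under 1 TPM in 1 group passed the filter only through the other group, so its direction was fixed by the filter.

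**Figure D2:**
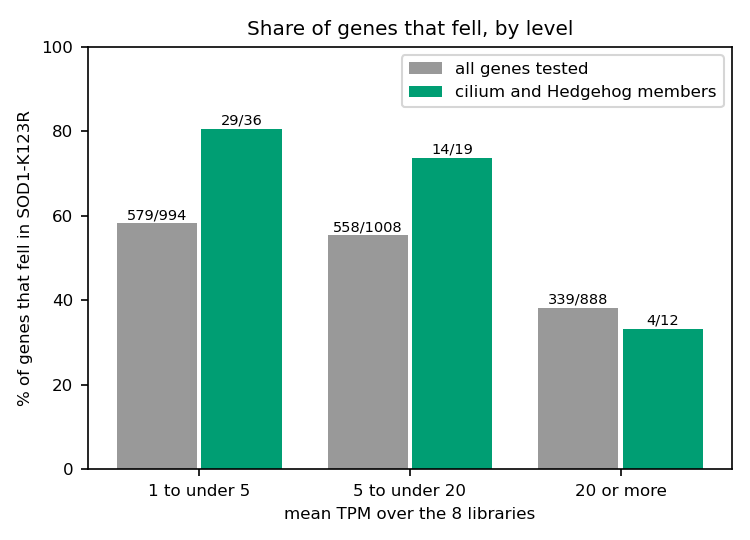
Percentage of genes that fell in SOD1-K123R (y axis) in 3 classes of mean TPM over the 8 libraries (x axis), for all genes tested and for the members, with counts above the bars. The members' bar is the taller in the lower classes (80.6% and 73.7%) and the shorter at 20 TPM or more (33.3%).

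Of 81 members matched by symbol to a RefSeq promoter of the GRCr8 assembly (250 bases before to 50 after the annotated start), 10 held GTTGCCA on either strand. GTTGCCA is an arm of the X-box, the motif bound by RFX factors, which are known regulators of ciliary genes. All 10 belong to the 40 promoters of cilium assembly members (25%), whereas 4.56% of all 33469 promoters of that length hold these letters. Those upstream of the start in tested genes that passed are printed here because they show how the letters lie in genes that moved. The capitals mark GTTGCCA or its reverse complement TGGCAAC, lower case gives up to 20 flanking bases in the direction of the gene, and no stretch runs past the start.
Ift81: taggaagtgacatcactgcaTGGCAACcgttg
Wdr35: gatgcgactgggcggcgctgGTTGCCAggc
Arl6: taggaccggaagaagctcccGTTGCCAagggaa
Wdr90: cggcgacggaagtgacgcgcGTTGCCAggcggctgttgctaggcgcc
Ehd3: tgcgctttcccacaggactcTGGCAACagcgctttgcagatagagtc
Cfap20: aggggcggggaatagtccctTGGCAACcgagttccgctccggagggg
They lie at chr12:39618590-39618621 (plus strand), chr6:37490541-37490570 (plus), chr11:54181325-54181357 (plus), chr10:15385820-15385866 (minus), chr6:27417549-27417595 (minus) and chr19:9614806-9614852 (plus). The letters end 5 bases before the start in Ift81, 3 in Wdr35, 6 in Arl6, 42 in Wdr90 and 145 in Cfap20. The first 5 genes fell and Cfap20 rose. By call, 6 of 38 promoters of members that fell held the letters (15.8%) and 1 of 15 of those that rose (6.67%). The GLI site GACCACCCA was in the promoter of 1 member, Tekt1, and of none of the 19 Hedgehog members with a promoter, against 0.385% of all promoters. The 2 motifs do not overlap in Tekt1. A match is a run of letters and not a measured binding site.

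Of the 13 listed Hedgehog receptors, co-receptors and brakes 2 were tested, Boc and Smo. Both fell, where 51.1% of all genes tested did. Boc (ENSRNOG00000002041), a co-receptor that binds Hedgehog ligands, read 33.5, 32.6, 31.9 and 39.4 TPM in SOD1-WT and 7.22, 8.35, 7.33 and 8.39 TPM in SOD1-K123R. Every SOD1-WT library was above every SOD1-K123R library, and the log2 fold change was -2.0 (SE 0.10, adjusted p = 3.51e-09, limma). Smo (ENSRNOG00000008332), the transmembrane transducer Smoothened, read 14.98, 13.8, 11.8 and 14.3 TPM in SOD1-WT and 6.15, 6.32, 4.85 and 6.98 TPM in SOD1-K123R. These groups did not overlap either (log2 fold change -1.06, SE 0.12, adjusted p = 3.48e-06). Boc was more abundant than Smo in SOD1-WT (mean 34.4 against 13.7 TPM) and closer to level with it in SOD1-K123R (7.82 against 6.08 TPM).

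Evc and Mosmo, whose products act on Smoothened, also fell. Evc, which works beside Smoothened at the ciliary base, read 9.07 to 10.2 TPM in SOD1-WT and 3.96 to 5.07 TPM in SOD1-K123R (log2 fold change -0.99, SE 0.12). Mosmo, which lowers the amount of Smoothened at the membrane, read 4.07, 4.91, 6.55 and 5.17 TPM in SOD1-WT and 2.24, 2.17, 1.45 and 1.66 TPM in SOD1-K123R. It fell by 1.10 on the log2 scale (SE 0.15, adjusted p = 1.42e-05), so genes for a positive and a negative regulator of the same protein both fell. Fbxl17, an F-box protein that targets the GLI inhibitor Sufu for degradation, went from 15.9 ± 1.71 to 7.62 ± 0.640 TPM (means with SD, 4 libraries a group, here and below).

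The exceptions were Gorab and Rora. Gorab, a golgin of the trans-Golgi, read 17.4, 19.9, 19.8 and 16.7 TPM in SOD1-WT and 36.5, 36.2, 36.1 and 33.3 TPM in SOD1-K123R. All SOD1-K123R libraries were above all SOD1-WT libraries (log2 fold change 0.91, SE 0.09, adjusted p = 8.13e-07). Rora, a nuclear receptor that also drives circadian genes, read 2.54 to 4.19 TPM in SOD1-WT and 6.5 to 10.9 TPM in SOD1-K123R (log2 fold change 1.197, SE 0.17). Both carry terms on regulation of the pathway and neither is a core component of it.

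**Figure D3:**
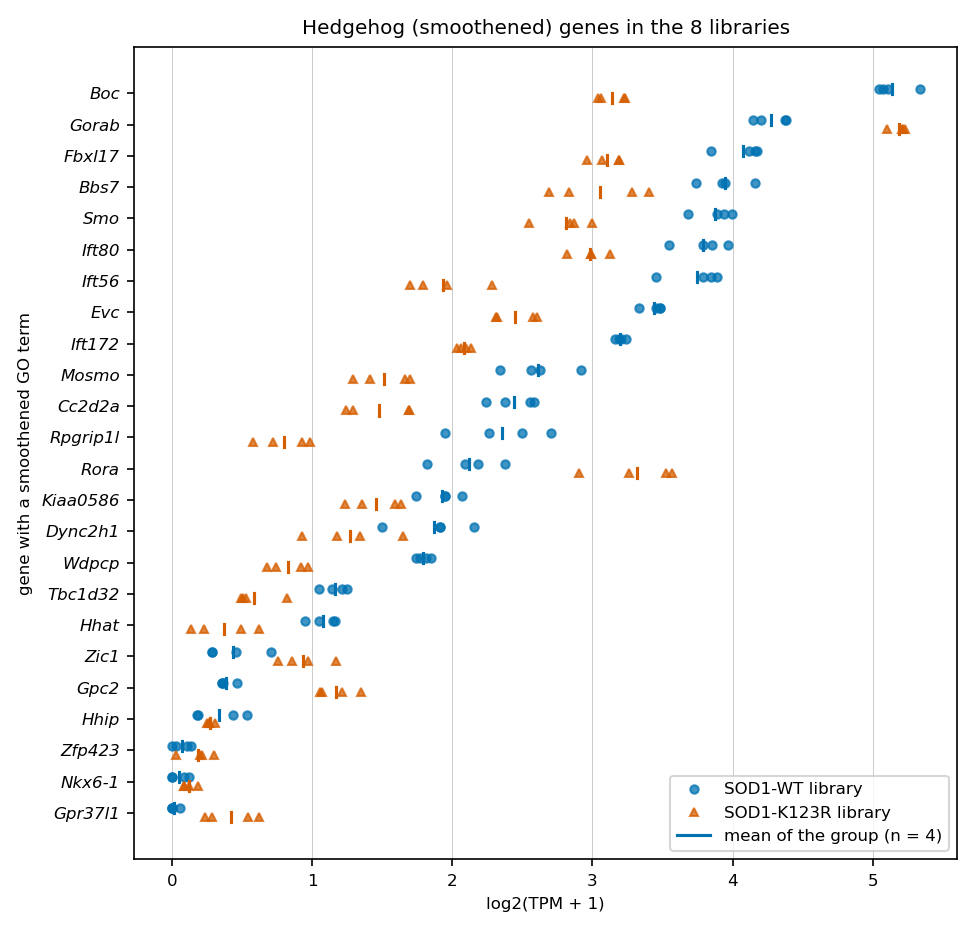
Level of the 24 genes with a smoothened term as log2(TPM + 1) on the x axis, 1 point per library (circles SOD1-WT, triangles SOD1-K123R), with a bar at each group's mean (n = 4). In Boc, Smo and Evc the triangles lie wholly to the left of the circles, in Gorab and Rora wholly to the right, and the lowest genes, Hhip among them, sit near 0 in both groups.

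The other 8 Hedgehog members were below the filter. Hhat, the acyltransferase that matures Hedgehog ligands, read 0.93 to 1.24 TPM in SOD1-WT and 0.10 to 0.54 TPM in SOD1-K123R. Zic1, a zinc finger transcription factor, read 0.22 to 0.63 and 0.69 to 1.25 TPM, and Gpc2, a glypican, 0.28 to 0.38 and 1.08 to 1.55 TPM. Hhip, a decoy receptor and a target of the pathway, read 0.13, 0.35, 0.45 and 0.14 TPM in SOD1-WT and 0.20, 0.24, 0.19 and 0.20 TPM in SOD1-K123R, with overlapping groups. Nkx6-1 and Zfp423, transcription factors, stayed at or under 0.23 TPM in every library, and the orphan receptor gene Gpr37l1 at or under 0.54. In the fit with no filter on low values 5 of the 24 rose and 16 fell, where 40.8% and 48.6% of 4226 genes did and 89.4% passed in either direction.

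Of the pathway's usual readouts, Gli1 was left out by the rule for its other terms and Hhip lay below the filter. Gli1, the GLI factor that is itself a target, read 0.20, 0.05, 0.11 and 0.02 TPM in SOD1-WT and 0, 0, 0.03 and 0.05 TPM in SOD1-K123R. The values are close to 0 in both groups, and they overlap. Ptch1, Gli2, Gli3 and Sufu were not analysed here. In the list of Hedgehog targets, 8 rows of the table matched 7 of its 21 genes, Ccnd2 with 2 identifiers. The 4 rows tested all rose, where 44.6% of all genes tested did: Jag2, a Notch ligand (log2 fold change 2.64), Foxc2, a forkhead factor (1.30), Ccnd1, cyclin D1 (1.07), and Bcl2, an inhibitor of apoptosis (0.71). All 4 are known to answer to other pathways as well. Jag2 averaged 0.44 TPM in SOD1-WT and passed the filter only through SOD1-K123R. Of the listed transducers the arrestin genes Arrb1 and Arrb2 fell (-1.07 and -0.74), as did Disp2, a relative of the ligand-release gene Disp1 (-1.003), whereas the kinase gene Gsk3b rose (1.002).

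Every intraflagellar transport gene tested fell at the RNA level, where 51.1% of all genes tested fell. Ift172 (ENSRNOG00000057813), an IFT-B subunit with both terms, read 8.21, 8.11, 7.94 and 8.47 TPM in SOD1-WT and 3.10, 3.17, 3.28 and 3.40 TPM in SOD1-K123R. The spread within each group was small beside the gap (log2 fold change -1.12, SE 0.10, adjusted p = 4.04e-07). Ift56, another IFT-B subunit, read 9.97, 13.4, 12.8 and 13.8 TPM and then 2.90, 3.88, 2.25 and 2.46 TPM, a log2 fold change of -1.81 (SE 0.15). Ift81, which binds tubulin, and Ift80 fell by 1.37 and 0.81 on the log2 scale. Of the 21 IFT-B symbols listed these 4 were analysed here. The only IFT-A gene analysed was Wdr35, which went from 14.9 ± 1.69 to 6.18 ± 0.727 TPM.

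Tested genes of the retrograde motor also fell, though the Dync2h1 call depended on scaling. Dync2i2, an intermediate chain of dynein-2, read 8.31, 8.40, 6.76 and 8.65 TPM in SOD1-WT and 1.73, 1.11, 1.58 and 1.57 TPM in SOD1-K123R. It was 5.36-fold lower in mean TPM, with groups far apart (log2 fold change -1.86, SE 0.13, adjusted p = 3.72e-08). Dync2h1, the heavy chain of the same motor, went only from 2.70 ± 0.673 to 1.46 ± 0.523 TPM with overlapping groups (log2 fold change -0.60, adjusted p = 0.00601), and that call was lost after median-of-ratios scaling (adjusted p = 0.0683). Dynll1, a dynein light chain outside the rule that serves many complexes, fell from 155 ± 3.47 to 46.5 ± 2.30 TPM. No kinesin-2 gene was analysed here.

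All 5 tested genes of the BBSome list fell, where 51.1% of all genes tested did. Ttc8 (ENSRNOG00000004542), a BBSome subunit, read 6.77, 9.15, 7.05 and 7.15 TPM in SOD1-WT and 1.36, 1.37, 1.31 and 1.05 TPM in SOD1-K123R. The groups were far apart, and its log2 fold change of -1.90 (SE 0.13, adjusted p = 2.58e-08) was the lowest of the tested cilium assembly members. Bbs7, a further subunit, went from 14.5 ± 1.85 to 7.47 ± 1.99 TPM, and Arl6, the GTPase that brings the BBSome to membranes, from 11.2 ± 2.93 to 3.99 ± 1.26 TPM. Bbs5 and the chaperonin-like Bbs12, which have no term that met the rule, fell by 1.62 and 1.095 on the log2 scale. Bbs12 averaged 0.35 TPM in SOD1-K123R and passed the filter only through SOD1-WT.

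Genes of the transition zone fell in 5 of 5 tested cases, where 51.1% of all genes tested fell. Their median log2 fold change was -0.88, against -0.49 over all genes tested. All 5 averaged from 1 to under 5 TPM, where 58.2% of all genes fell, with a median of -0.66. Rpgrip1l, Tmem218 and Invs averaged under 1 TPM in SOD1-K123R and passed the filter only through SOD1-WT. Rpgrip1l, a scaffold of this gate, read 2.86, 3.79, 5.51 and 4.66 TPM in SOD1-WT and 0.90, 0.98, 0.65 and 0.49 TPM in SOD1-K123R, a clear separation (log2 fold change -1.55, SE 0.17, adjusted p = 1.68e-06). Cc2d2a went from 4.45 ± 0.591 to 1.82 ± 0.475 TPM, and Tmem67, a membrane protein of the gate, from 3.16 ± 0.522 to 1.295 ± 0.520 TPM. Tmem218 and Invs, the latter outside the rule, fell by 0.85 and 0.74 on the log2 scale. Cep290, a further gate protein, lay below the filter (0.758 ± 0.300 and 0.378 ± 0.169 TPM). Wdpcp and Cplane1, which act in planar polarity and in recruiting IFT to the base, fell by 0.97 and 0.56.

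Of 9 centriolar genes tested, 7 fell and 2 did not pass. Their median log2 fold change was -0.50, close to the -0.49 of all genes tested, of which 51.1% fell. Ccp110, which caps the mother centriole and keeps a cilium from forming, read 2.26, 3.17, 4.43 and 2.54 TPM in SOD1-WT and 2.40, 3.16, 1.32 and 1.76 TPM in SOD1-K123R (log2 fold change -0.38, SE 0.20, adjusted p = 0.0839). Sclt1, of the distal appendages that dock the centriole to the membrane, read 2.17, 4.00, 3.99 and 2.52 TPM and then 3.28, 2.64, 1.41 and 1.47 TPM (adjusted p = 0.0927). In both genes SOD1-K123R replicates 1 and 2 lay within the range of SOD1-WT, and each gene passed when SOD1-WT replicate 1 was left out (adjusted p = 0.0373 and 0.0334). Ccp110 also passed without SOD1-K123R replicate 2 (0.0217) and Sclt1 without SOD1-K123R replicate 1 (0.025). Ofd1 (-0.58), Cep135 (-0.47), Alms1 (-0.50) and Kiaa0586 (-0.47), centriole and satellite components, had calls that median-of-ratios scaling ended (adjusted p = 0.194, 0.152, 0.0707 and 0.164). Cep41, needed for tubulin glutamylation in the axoneme, read 5.13 ± 0.611 and 1.2 ± 0.261 TPM (log2 fold change -1.48).

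Membrane delivery genes fell as well. Ehd3, a membrane-shaping ATPase of the early ciliary vesicle and the most abundant cilium assembly member that fell, read 57.7, 55.7, 56.8 and 64.4 TPM in SOD1-WT and 17.1, 19.8, 15.9 and 22.5 TPM in SOD1-K123R. The groups did not overlap (log2 fold change -1.60, SE 0.11, adjusted p = 3.71e-08). Snap29, a SNARE protein also used in autophagy, went from 11.6 ± 1.77 to 3.46 ± 0.392 TPM, and Rabl2, a small GTPase that loads IFT-B at the base, from 3.88 ± 0.169 to 1.36 ± 0.319 TPM. Kif24, a kinesin that restrains ciliogenesis together with Ccp110, was below the filter at 1.37 ± 0.132 and 0.403 ± 0.114 TPM. Odf2l, annotated as a negative regulator of assembly, fell (log2 fold change -0.96), so genes that promote and genes that restrain cilium assembly were both among those that fell.

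**Figure D4:**
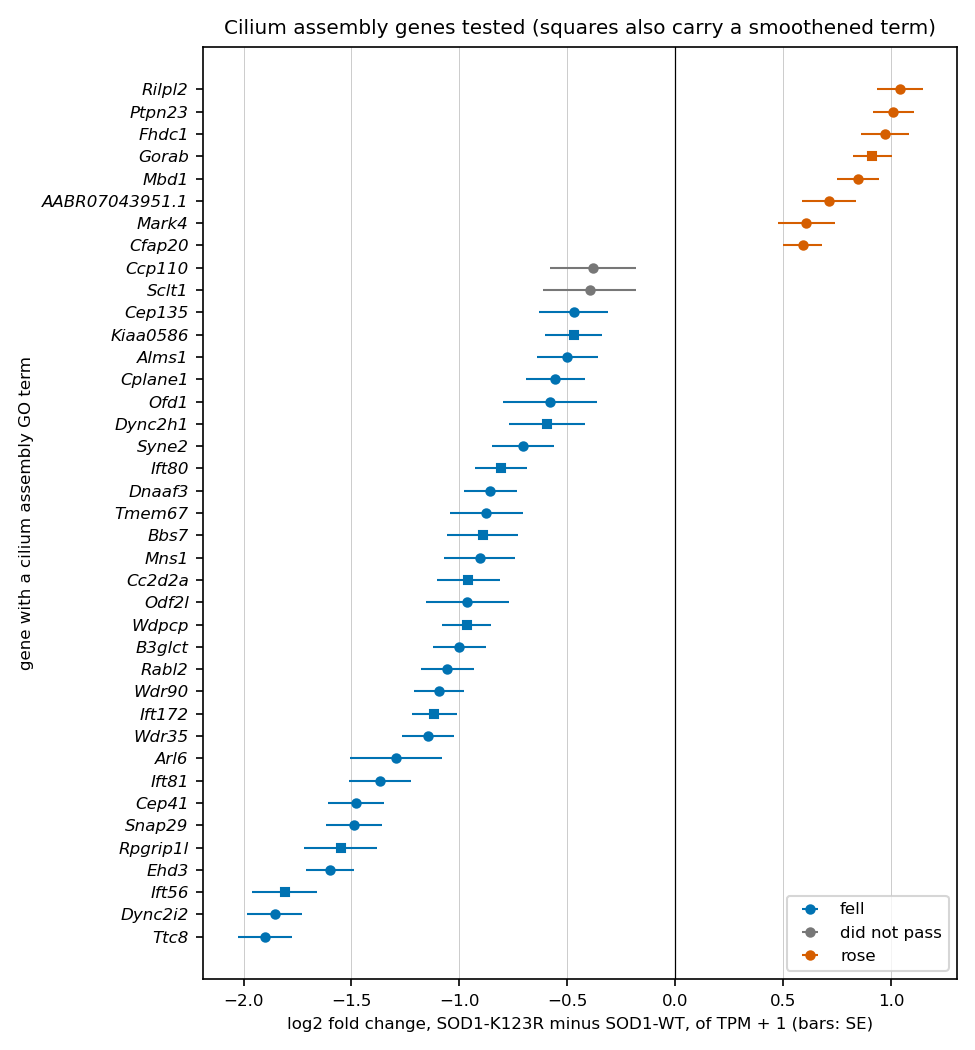
Log2 fold change (x axis, SOD1-K123R minus SOD1-WT, of TPM + 1) with its SE for the 39 tested genes with a cilium assembly term (y axis), in order, colored by call, with squares for genes that also carry a smoothened term. The order runs from Ttc8 at -1.90 to Rilpl2 at 1.04, and the 2 genes that did not pass, Ccp110 and Sclt1, lie next to 0.

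Few of the 8 cilium assembly members that rose are known as structural parts of the organelle. Rilpl2, which regulates the ciliary content of receptors, read 33.6, 32.0, 24.8 and 33.0 TPM in SOD1-WT and 59.1, 63.2, 63.6 and 70.4 TPM in SOD1-K123R, with no overlap (log2 fold change 1.04, SE 0.11, adjusted p = 1.10e-06). Ptpn23, a phosphatase-like protein of endosomal sorting, went from 23.4 ± 2.15 to 48.2 ± 3.94 TPM, and Fhdc1, a formin, from 1.09 ± 0.110 to 3.09 ± 0.316 TPM. Mbd1, best known for binding methylated DNA, went from 18.5 ± 1.38 to 34.0 ± 3.19 TPM. Mark4, a microtubule-affinity kinase, and Cfap20, a protein of the axoneme, rose by 0.61 and 0.59. The unnamed locus AABR07043951.1 rose by 0.71 and Gorab is described above.

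Motile-cilium genes were mostly near or below the filter. Of 11 from that list in the table only 4 were tested: Ccdc65 (3.31 ± 0.209 to 1.12 ± 0.211 TPM), Mns1 (1.96 ± 0.457 to 0.595 ± 0.373) and Dnaaf3 (1.69 ± 0.255 to 0.488 ± 0.169) fell, and Cfap20 rose. Mns1 and Dnaaf3 passed the filter only through SOD1-WT. Tekt1, a filament protein of motile axonemes, read 0.17 to 1.01 TPM in SOD1-WT and at most 0.16 TPM in SOD1-K123R, while Rsph4a, a radial spoke protein, read at most 0.07 TPM in SOD1-WT and 0.48 to 0.84 TPM in SOD1-K123R. Of 11 markers of multiciliated cells 3 were in the table. Their summed level was 4.71 to 8.80 TPM in SOD1-WT and 4.38 to 9.80 TPM in SOD1-K123R, nearly all from Tppp3, which is not particular to such cells, and the groups overlapped. The part of multiciliated cells in these results was not tested. Foxj1, the master factor of motile ciliogenesis, and the RFX genes were not analysed here.

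Among members with other cilium terms, receptors gave the largest changes in both directions. Gpr83, a neuropeptide receptor found in cilia, read 3.29, 3.35, 4.28 and 4.83 TPM in SOD1-WT and 0.22, 0.05, 0.10 and 0.09 TPM in SOD1-K123R. It lay 34.2-fold lower in mean TPM, and its log2 fold change of -2.14 (SE 0.13, adjusted p = 1.36e-08) was the lowest of all tested members. Mchr1, the receptor for melanin-concentrating hormone and a classic ciliary receptor, was listed at 0 in all SOD1-WT libraries and at 0.98, 0.79, 0.83 and 0.51 TPM in SOD1-K123R. Htr6 and Drd1, receptors for serotonin and dopamine that lie outside the rule, read at most 0.05 TPM in SOD1-WT and 0.32 to 1.17 TPM in SOD1-K123R. These levels are low, and the depth behind them is unknown. Lpar3, a lysophosphatidic acid receptor, had the highest log2 fold change of the tested members (1.64, SE 0.13), from 0.543 ± 0.189 to 3.795 ± 0.538 TPM.

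Several of the remaining members have main roles elsewhere. Vhl, the ubiquitin ligase subunit that degrades hypoxia-inducible factors and also stabilises cilia, read 20.9, 19.4, 20.3 and 20.9 TPM in SOD1-WT and 65.3, 61.3, 65.3 and 64.8 TPM in SOD1-K123R. The rise was 3.15-fold in mean TPM with little spread (log2 fold change 1.61, SE 0.08, adjusted p = 2.28e-09). Stk11, the kinase LKB1, went from 36.5 ± 3.00 to 67.8 ± 6.24 TPM. Cav1, the caveolar coat protein and the most abundant member, went from 286 ± 49.0 to 127 ± 14.3 TPM, Myof, a membrane-repair protein, from 136 ± 12.1 to 45.5 ± 7.82 TPM, and Pde4d, which degrades cAMP, from 5.49 ± 1.29 to 1.16 ± 0.210 TPM. The sperm-channel genes Catsper2 (-0.52) and Catsperg (0.42) and the microtubule inner protein gene Cimip2b (0.52) passed with calls that some alternatives ended. Their adjusted p was 0.00155, 0.0197 and 0.026 in limma. The call for Catsper2 ended after median-of-ratios scaling (adjusted p = 0.0758), and those for Catsperg and Cimip2b ended without SOD1-WT replicate 1 (0.0648 and 0.0704). The Catsperg call also ended without SOD1-WT replicate 3 (0.0515), and the Cimip2b call without SOD1-WT replicate 4 or SOD1-K123R replicate 1 or 3 (0.0532, 0.0811 and 0.0927).

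Other members with cilium terms that passed with separate groups mostly fell. Iqcd, a subunit of the nexin-dynein regulatory complex, went from 3.57 ± 0.704 to 0.745 ± 0.371 TPM, and Dnai4, an axonemal dynein chain, from 3.48 ± 0.705 to 1.68 ± 0.408 TPM. The centrosomal genes Cep15 and Cep78 fell by 1.11 and 0.88 on the log2 scale. Agtpbp1, which trims glutamate chains from tubulin, fell by 0.70 and Kiaa1671 by 0.90. Brwd1, a bromodomain protein, was the exception, rising from 3.09 ± 0.923 to 7.305 ± 1.31 TPM.

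Of 7 stereocilium members 3 were tested, and all 3 rose, where 44.6% of all genes tested rose. Eps8, an actin-capping protein, went from 3.502 ± 0.333 to 12.2 ± 1.42 TPM, Fchsd2, which promotes actin assembly, from 7.31 ± 0.979 to 14.2 ± 3.31 TPM, and Pvalb, a calcium buffer, from 0.325 ± 0.214 to 2.135 ± 0.342 TPM. Pvalb averaged under 1 TPM in SOD1-WT and passed the filter only through SOD1-K123R. In the fit with no filter on low values Ripor2 also rose, while Cecr2, Myo15a and Ptprq did not pass. Without the stereocilium members 47 of all members tested at 1 TPM fell and 15 rose.

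The members also varied together within groups. In SOD1-WT, replicate 1 was the lowest library for 19 of the 29 cilium assembly members that fell, and replicate 3 the highest for 19. In SOD1-K123R, replicate 3 was the lowest for 15 and replicate 1 the highest for 13. The median cilium assembly member lay at -0.16 relative to its group mean on the log2 scale in SOD1-WT replicate 1 and at 0.13 in replicate 3. In SOD1-K123R the medians ran from -0.16 in replicate 3 to 0.14 in replicate 1. The same libraries were low or high over all genes tested, with a narrower range of -0.08 to 0.06. These deviations are small beside the median group difference of -0.88. Leaving out any single library kept between 27 and 30 cilium assembly members falling.

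**Figure D5:**
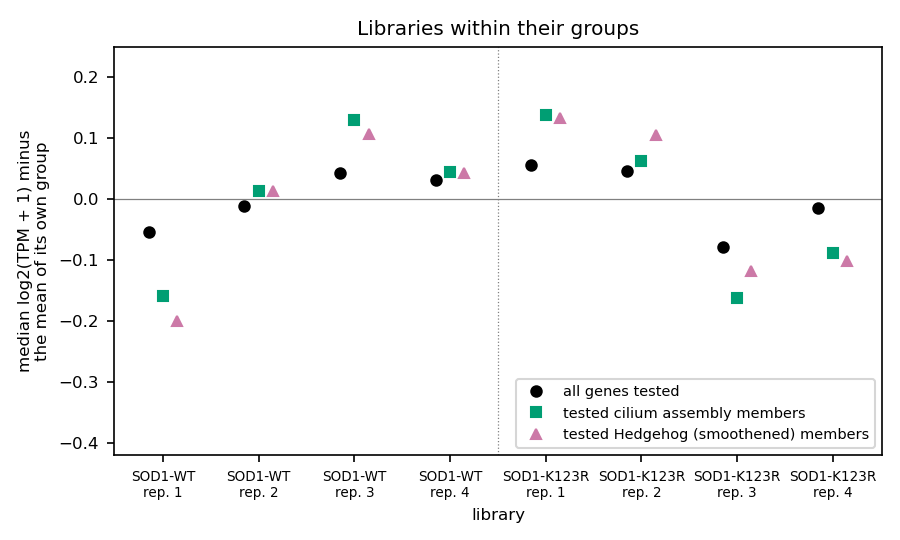
Median over genes of log2(TPM + 1) minus the mean of the library's own group (y axis) for each library (x axis), for all genes tested, tested cilium assembly members and tested Hedgehog members. SOD1-WT replicate 1 and SOD1-K123R replicates 3 and 4 lie below 0 in all 3 sets, with the members farther from 0 than all genes.

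Some other values that moved with the groups are given here. Plk1, a mitotic kinase that also promotes loss of cilia, fell from 48.0 ± 3.10 to 17.2 ± 2.88 TPM, and Cdkn1b, the division inhibitor p27 that the rule left out, rose from 25.3 ± 2.26 to 90.6 ± 9.42 TPM. Ctnnb1, beta-catenin, also left out by the rule, fell from 206 ± 2.84 to 61.5 ± 6.49 TPM. Of 7 macrophage and leukocyte markers 2 were in the table, with a summed level of 5.44 to 8.04 TPM in SOD1-WT and 23.4 to 30.9 TPM in SOD1-K123R, nearly all from Cd68. Of 6 annulus fibrosus and tendon markers 2 were in the table, and both fell, where 51.1% of all genes tested did. Scx went from 29.1 ± 6.60 to 10.5 ± 1.70 TPM and Thbs4 from 16.03 ± 4.45 to 9.79 ± 0.885 TPM. Of 7 glia and muscle markers 1 was in the table, Ncam1, which fell from 35.2 ± 4.63 to 17.3 ± 2.53 TPM. Of 7 endothelial markers 2 were in the table and summed to at most 0.67 TPM in any library. The part of division state or of other cell types in the members' differences was not tested.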

How the data were processed

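Per the file headers and the table's name, the authors deposited gene-level TPM made with RSEM. DESeq2 is named without a role per the submitters' processing notes. The sources used here name no aligner or genome build. TPM keep no counts, so depth is unknown and no counting interval was set. How the 4226 rows were selected is unknown here, so every count is conditional on them. Columns were matched to samples by library names in the labels, and 0 sample columns were left unmapped.

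Genes averaging 1 TPM or more were transformed to log2(TPM + 1) and fitted with limma 3.58.1 in R 4.3.3 (eBayes with trend, two-sided), with Benjamini-Hochberg adjustment over all 2890. The script was tested on simulated data. Of 321 genes in 15 pathway lists, matched by symbol, 77 rows were used, 48 of them members. Members and lists were chosen with earlier results of these data known. Named are all Hedgehog members, up to 12 cilium assembly and 12 other members per direction with the largest fold change among passing genes with separate groups, those that did not pass, and list genes. Others were chosen after their values were seen. Alternatives were pseudocount, filter, scaling, trend, replicate block, exclusions of the rule and leaving out libraries; leaving out stereocilium members was added after seeing the data.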

Additional observations from a re-analysis of the deposited data

Results flagged for a closer look

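In 9 of 150 groups of 4 libraries, taken over 75 members, the highest or lowest library lay far from the others by Dixon's criterion, where chance gives about 1 in 20. In SOD1-K123R these were Dnaaf3 in replicate 4 (0.74 TPM, the rest 0.39 to 0.41), Fhdc1 in replicate 1 (3.56, the rest 2.89 to 2.99) and Gorab in replicate 4 (33.33, the rest 36.07 to 36.52). In the same group they were Mns1 in replicate 1 (1.15, the rest 0.35 to 0.45), Tbc1d32 in replicate 1 (0.77, the rest 0.41 to 0.44) and Vhl in replicate 2 (61.34, the rest 64.78 to 65.31). In SOD1-WT they were Gpc2 in replicate 4 (0.38 TPM, the rest 0.28 to 0.29), Gpr37l1 in replicate 2 (0.04, the rest 0) and Ttc8 in replicate 2 (9.15, the rest 6.77 to 7.15). Each of these libraries stayed on its own side of the other group.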

How the results depend on the processing

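Of 67 tested members, none changed direction and 57 kept their side of the threshold in each alternative fit whose filter they passed, which at a mean of at least 5 TPM was 31 of them. With no filter on low values 5 Hedgehog members rose. At the filter of 5 TPM, where fewer genes were tested, 8 of 10 tested Hedgehog members fell and 2 rose. Of 17 cilium assembly members tested, 10 fell (58.8%) and 7 rose. Of all 31 members tested, 18 fell and 13 rose. Of members tested, 58.1% then fell against 70.1% at the filter of 1 TPM, while the share of all genes tested that fell went from 51.1% to 47.3%. Median-of-ratios scaling shifted log2 fold changes by a median of 0.39 and quantile normalization by a median of 0.20. Under each of them 12 Hedgehog and 24 cilium assembly members fell, with 47.2% and 48.4% of all genes falling. Leaving out 1 library gave 14 falling Hedgehog members in every fit, 27 to 30 falling cilium assembly and 45 to 48 falling members. The labels give both groups the same replicate numbers. Same-numbered libraries deviated with correlations of -0.35, 0.016, -0.20 and 0.054, so the numbers are not taken as pairs. With a replicate block 1282 genes rose and 1461 fell, and 14 Hedgehog and 28 cilium assembly members fell, with Ofd1 no longer passing in limma (adjusted p = 0.0555). The Ofd1 call also ended without SOD1-WT replicate 3 or 4 (0.0677 and 0.0576) or SOD1-K123R replicate 3 or 4 (0.0794 and 0.052), and the cause was not tested. Depth is unknown, which limits what can be said of members below 1 TPM.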
